A study of Mus musculus with 15 samples.

Results

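The 53 genes described here encode the mouse translation initiation factors. They were taken as the protein-coding genes of the GENCODE vM21 annotation (mm10) whose symbol starts with Eif and a digit, without Eif4a3 and Eif2s3y, and they are 53 of the 55536 annotated genes in the count table. The names choose the genes, so that eIF2 alpha kinases and eIF4E-binding inhibitors are included beside the factors themselves. Poly(A) RNA was sequenced from OT-I CD8+ T cells, which carry a transgenic T cell receptor for the ovalbumin peptide SIINFEKL. Donor cells were from Rag1-/- or Rag2-/- OT-I mice marked by CD45.1 or CD45.1/CD45.2, and the recipients were C57BL/6J mice (CD45.2). Recipients of the Ag group received the peptide with a control antibody, and recipients of the Ag+Costim group received the peptide with agonist antibodies to the costimulatory receptors OX40 (CD134) and 41BB (CD137). OT-I cells were sorted from spleen and lymph nodes by CD8, CD45.1 and both transgenic receptor chains, at 4 days according to the labels (the study's methods give a shorter time). Both groups hold transferred, antigen-primed cells and differ in the antibodies, with 5 libraries each. Mice of both sexes were used and ages were not given for single libraries. A further 5 libraries, of naive OT-I cells, were not analysed here.

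Initiation factors bring the small ribosomal subunit, the initiator tRNA and an mRNA together. The cap-binding complex eIF4F (the cap-binding protein eIF4E, the helicase eIF4A and the scaffold eIF4G) recruits the mRNA, eIF2 carries the initiator tRNA as a complex with GTP, eIF2B recharges eIF2, eIF3 holds the complex together on the small subunit, and eIF1, eIF1A, eIF5 and eIF5B take part in choosing the start codon and joining the large subunit. Activated T cells are known for a steep increase of protein synthesis, with control through the 4E-binding proteins downstream of TORC1 and through phosphorylation of eIF2 alpha.

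The total of estimated counts ranged from 59.6 to 449 M in the Ag libraries and from 332 to 639 M in the Ag+Costim libraries, of which 1.01% ± 0.172 and 1.26% ± 0.0753 (SD, n = 5 each) belonged to the 53 genes. All 8 CD8 T cell markers were present in every library, with summed levels of 3758 to 7411 CPM (counts scaled to library size, with TMM factors) in Ag and 4952 to 6098 in Ag+Costim. The 10 cell cycle genes examined summed to 717 and 755 CPM in Ag libraries 1 and 4, to 3411 in Ag library 3 and to between 5414 and 6683 in the other 7 libraries. Markers of red cells reached 1103 CPM and B cell markers 288 CPM in Ag library 3, the one with the lowest total, against at most 39.8 and 31.5 CPM in Ag+Costim. B cell markers also summed to 111 and 138 CPM in Ag libraries 1 and 4 and red cell markers to 126 CPM in Ag library 1, while B cell markers were at 17.4 and 20.8 CPM in Ag libraries 2 and 5. Between 20714 and 21779 genes had counts in Ag libraries 2 and 5, and between 28727 and 51778 in the others. Y-linked genes were high in Ag library 4 and Ag+Costim libraries 3 and 4. Ag libraries 3, 5 and 2 held both Xist and Y-linked RNA. In these 3 libraries Kdm5d measured 10.9, 2.42 and 1.73 CPM, and Eif2s3y 13.3, 15.6 and 8.52 CPM. In bulk RNA, fewer cells of a type and less RNA per cell cannot be told apart.

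The first comparison asked how costimulation on top of antigen altered the levels of the initiation factor genes. Most were higher on average in Ag+Costim. Of the 52 genes that passed the filter on low counts, 47 had a log2 fold change above 0 and 5 below 0, and their median was 0.49. Of the 8626 genes that averaged at least 10 CPM, 75.6% were above 0, with a median of 0.24. The median of the initiation factor genes was 0.37 with DESeq2 size factors, 0.28 with the upper quartile and 0.26 with total counts, where that of the 8626 genes was 0.12, 0.02 and -0.0025. At that level 41 of 50 initiation factor genes lay above the median of all genes. None of them passed a Benjamini-Hochberg (BH) threshold of 0.05 in edgeR's quasi-likelihood test, in which 0% of 24262 genes passed. At an unadjusted p below 0.05 there were 13, all higher in Ag+Costim, where 7.89% of all genes were higher and 10.7% lower at that limit. All 13 are among the 50 at 10 CPM or more, and of all genes at that level 20.2% were higher and 2.82% lower. DESeq2 called 6 of the genes higher (1.79% of all genes with an adjusted p) and 1 lower (12.5%), and limma with quality weights per library called 41 higher (25.8%) and 1 lower (26.4%). Among all genes at 10 CPM or more, 8.27% were called higher and 2.49% lower by DESeq2, and 57.7% and 12.5% by limma. The limma fit gave Ag libraries 2 and 5 weights of 0.0986 and 0.0656, against 0.508 to 3.35 for the other 8, so its folds rest mostly on Ag libraries 1, 3 and 4.

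The groups did not overlap in 8 genes, each of them higher in all 5 Ag+Costim libraries than in any Ag library, and 0 genes were lower in this way. Over all genes tested these shares were 4.48% and 1.13%, and over the genes at 10 CPM or more, where all 8 belong, 11.3% and 0.22%. The 8 of 50 were 3 genes of the eIF4F group (Eif4g1, Eif4g2, Eif4e3), 2 eIF2 alpha kinases (Eif2ak1, Eif2ak2), 2 eIF3 genes (Eif3a, Eif3j2) and Eif5. The eIF4F group holds cofactors and relatives beside the subunits of the complex, and Eif4g2 and Eif4e3 are relatives. For any gene without overlap the exact two-sided permutation test over the 252 assignments of libraries gives its smallest value, p = 0.00794, unadjusted. Scaled by DESeq2 size factors or by the upper quartile, 5 genes were without overlap and higher (7.31% and 3.72% of all genes at 10 CPM or more), and 9 when scaled by total counts (7.26%). The median length of the main transcript was 4181.5 bases in these 8 genes and 2333 in the other 42 at 10 CPM or more. The same split over all genes gave 3787.5 and 2562 bases.

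**Figure D1:**
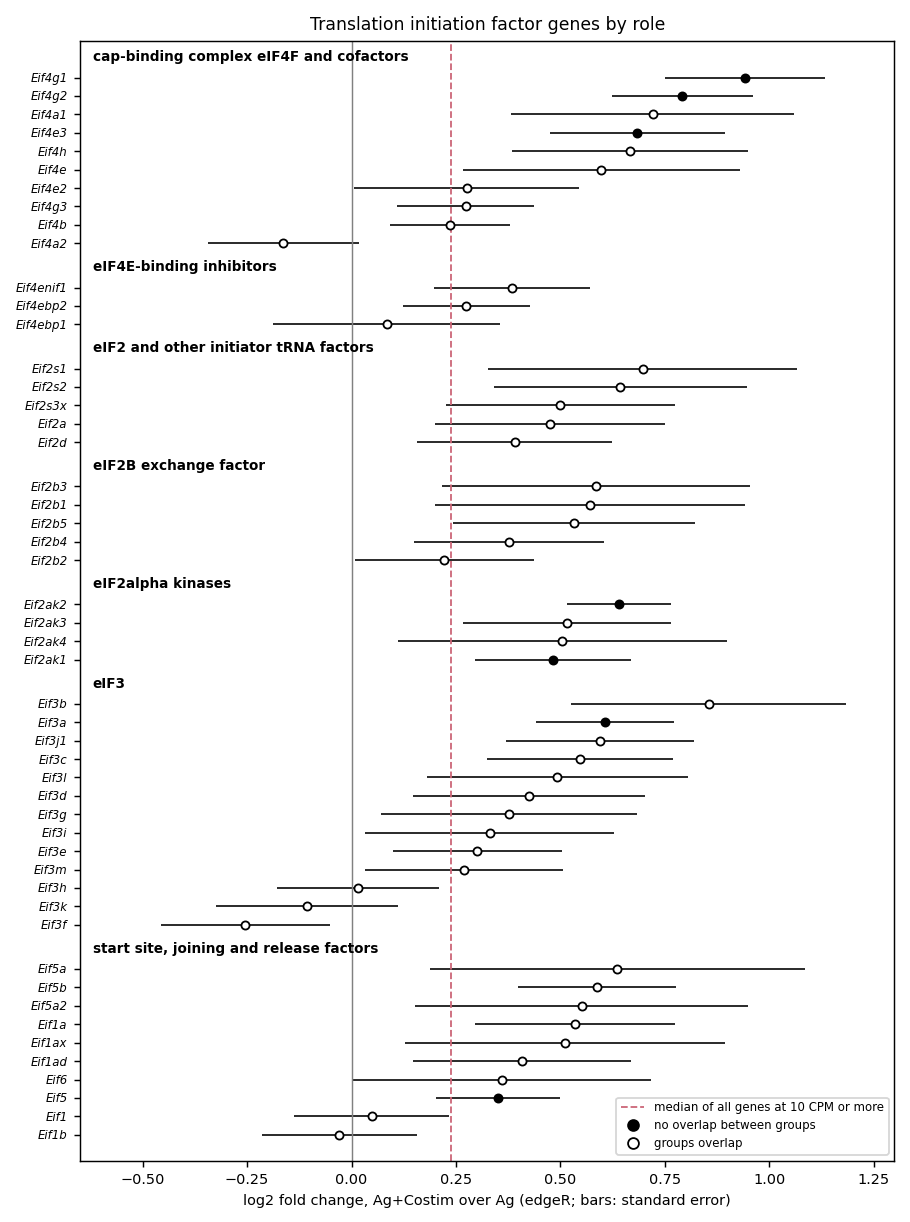
Log2 fold change of Ag+Costim over Ag (points, with standard error as bars) for 50 initiation factor genes grouped by role; filled points mark genes whose groups do not overlap and the dashed line is the median of all genes at 10 CPM or more. Most points lie to the right of the dashed line at 0.24, and Eif3f, Eif4a2, Eif3k and Eif1b lie below 0. Eif3j2 and Eif4ebp3, whose standard errors exceed 1, are not drawn.

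The eIF4F group had the highest median of the 7 roles, 0.63 over its 10 tested genes, and held both initiation factor genes with the largest fold changes among those without overlap once Eif3j2 (SE above 1) is set aside. Eif4g1 (chr16:20668313-20692884, plus strand), the scaffold that links the cap to the ribosome, measured 101, 179, 174, 133 and 189.5 CPM in Ag libraries 1 to 5 and 271, 278, 276, 367 and 301 CPM in the Ag+Costim libraries. The lowest Ag+Costim library lay well above the highest Ag library, and the log2 fold change was 0.94 ± 0.19 (SE; edgeR BH = 0.141, DESeq2 adjusted p = 0.000216). Eif4g2 (chr7:111067750-111083030, minus strand), a relative of the scaffold that lacks the eIF4E-binding part and serves cap-independent initiation, measured 724, 975, 1014, 875 and 1149 CPM in Ag and 1507, 1564, 1506, 1932 and 1694 CPM in Ag+Costim. Its log2 fold change was 0.79 ± 0.17 (edgeR BH = 0.142, DESeq2 adjusted p = 4.67e-05). The third scaffold gene, Eif4g3, had overlapping groups, with 72.7 ± 15.9 CPM in Ag against 87.9 ± 5.07 for Ag+Costim (SD, n = 5).

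The cap-binding protein itself and its helicase showed another arrangement. Eif4e measured 76.1, 219, 138, 87.4 and 276 CPM in Ag and 232, 219.7, 226, 282 and 245 CPM in Ag+Costim. The helicase gene Eif4a1 measured 257, 829.7, 435, 267 and 807 CPM in Ag and 829, 797, 849, 989 and 814 CPM in Ag+Costim. In both genes Ag libraries 1 and 4 were low and Ag libraries 2 and 5 stood at the level of the Ag+Costim libraries, so that the groups overlapped (log2 fold changes of 0.60 ± 0.33 and 0.72 ± 0.34, edgeR BH = 0.307 and 0.276). The paralogous helicase gene Eif4a2 measured 110.1, 97.4, 69.6, 124 and 74.1 CPM in Ag and 96.8, 88.8, 70.3, 86.1 and 82.0 CPM in Ag+Costim, with the highest values in Ag libraries 1 and 4 (log2 fold change -0.16 ± 0.18, edgeR BH = 0.570). Eif4e3, a low-level cap-binding relative, measured 5.67, 12.3, 9.82, 7.88 and 11.9 CPM in Ag and 14.7, 14.6, 16.8, 16.4 and 13.99 CPM in Ag+Costim (0.68 ± 0.21, edgeR BH = 0.2196). The helicase cofactor gene Eif4h had a log2 fold change of 0.67 ± 0.28, and the related cofactor gene Eif4b one of 0.24 ± 0.14. Eif4e1b was at 0.958 CPM or less in every library and was not tested; it is the gene that DESeq2 called lower. Reads of Eif4a1 could be shared with a pseudogene, Eif4a-ps4, that matches 99.9% of 1218 bases.

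The balance of the helicase genes was compared as a share. Counted per kilobase of transcript, Eif4a1 supplied 74.6%, 91.8%, 87.1%, 73.3% and 93.2% of the Eif4a1 and Eif4a2 total in Ag libraries 1 to 5. In the Ag+Costim libraries it supplied 91.2%, 91.7%, 93.7%, 93.3% and 92.5%. The means were 84.0% ± 9.46 and 92.5% ± 1.03 (SD, n = 5), a difference that did not pass a two-sided exact permutation test (p = 0.0873). Ag libraries 1 and 4 held the low shares, and Ag libraries 2 and 5 lay within the range of the Ag+Costim libraries. Without Ag library 2 or without Ag library 5, the 2 Ag libraries within that range, the difference passed the exact test (p = 0.0317 and 0.0238). With any other single library left out it did not pass (exact test, p from 0.0873 to 0.1825).

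**Figure D2:**
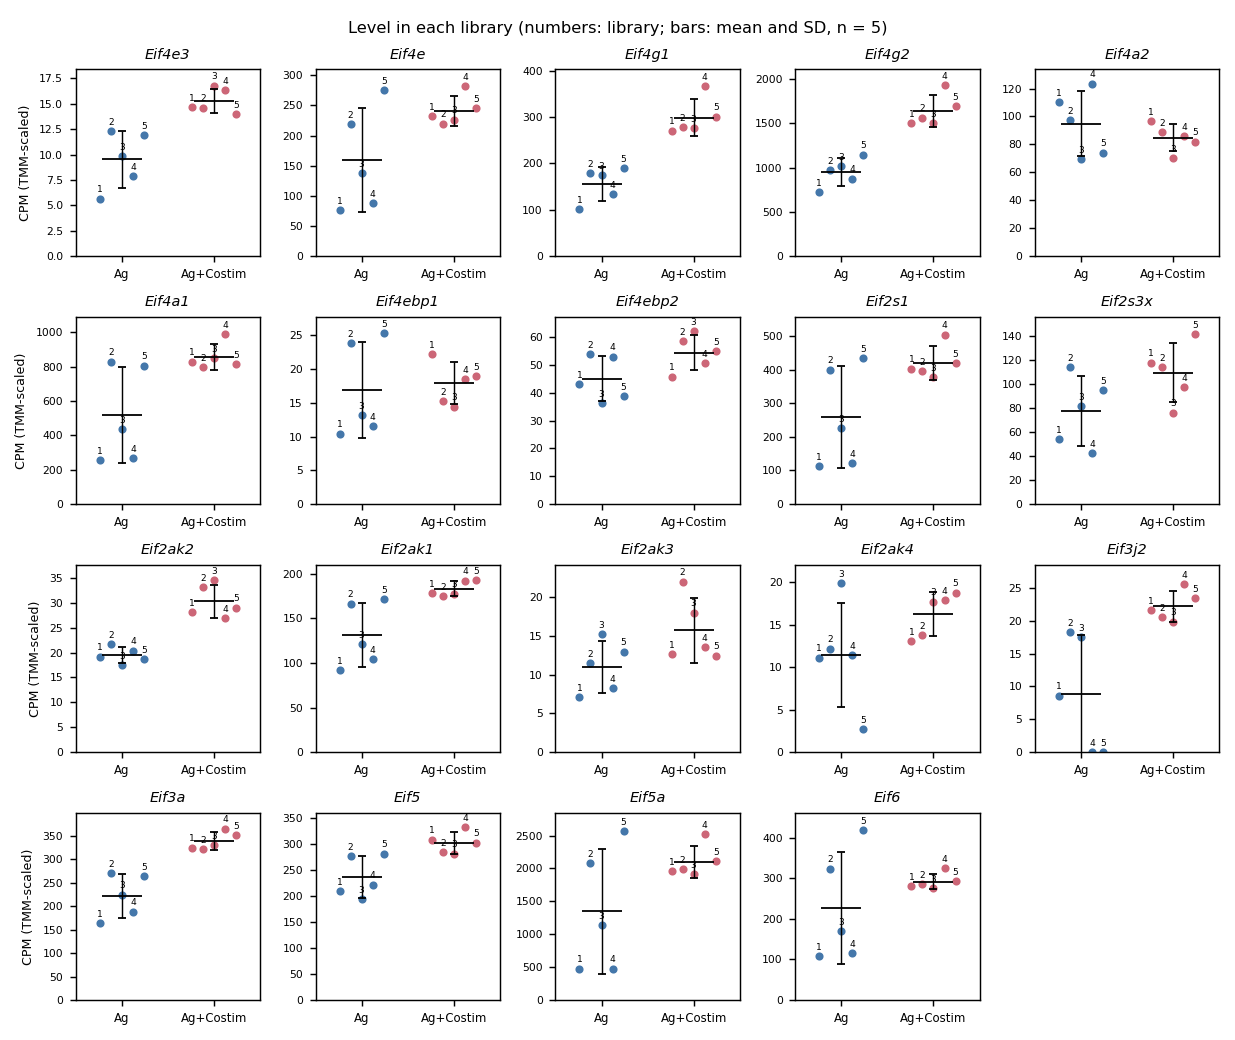
CPM in each library (points, numbered by library) with mean and SD (n = 5 per group) for the 19 initiation factor genes described library by library. Eif4g1, Eif4g2 and Eif2ak2 separate the groups, while in Eif4a1, Eif2s1, Eif5a and Eif6 Ag libraries 2 and 5 reach the Ag+Costim libraries.

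Windows around the start sites of the genes were searched for CACGTG, the palindromic E-box core that MYC and related factors bind and that reads the same on both strands. RefSeq promoter windows (GRCm38.p6, from 250 bases before to 50 after a start site) matched 41 of the 53 genes by symbol. Of these 10 (24.4%) held the motif in any window, against 9.18% of the 16522 protein-coding genes in the table. Counted by window in place of gene, 7.15% of all windows held it. Neither background was limited to genes expressed in these cells. The sites of the eIF4F genes Eif4g1, Eif4a1 and Eif4e, and of Eif3f and Eif3k, whose fold changes were below 0, are shown with the motif in capitals:
Eif4g1, chr16:20672665-20672686, plus strand: gtgggtgtCACGTGatggggcg
Eif4g1, chr16:20672734-20672755, plus strand: gcgccggtCACGTGgggcgctg
Eif4a1, chr11:69672599-69672620, minus strand: cgcctccgCACGTGtaaaggtg
Eif4e, chr3:138527032-138527053, plus strand: ccagcgacCACGTGatcacttt
Eif4e, chr3:138527196-138527217, plus strand: acgtccgtCACGTGggcaggag
Eif3f, chr7:108934339-108934360, plus strand: atatgattCACGTGgtataaat
Eif3k, chr7:28981919-28981940, minus strand: aaggaaatCACGTGgtagacaa

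The 10 genes with the motif spanned log2 fold changes from -0.25 (Eif3f) to 0.94 (Eif4g1), with a median of 0.60. The other 31 spanned -0.16 to 0.86, with a median of 0.48. The motif stood in genes at both ends of the range.

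The eIF4E-binding inhibitors had the lowest median, 0.18 over 4 genes. Eif4ebp1, the 4E-binding protein best known as a TORC1 substrate, measured 10.4, 23.8, 13.1, 11.6 and 25.3 CPM in Ag and 22.2, 15.3, 14.4, 18.5 and 19.0 CPM in Ag+Costim. Its groups overlapped throughout (log2 fold change 0.08 ± 0.27, edgeR BH = 0.854), and the sign of the difference turned under other scalings. Eif4ebp2 measured 43.1, 53.9, 36.2, 52.9 and 38.7 CPM in Ag and 45.8, 58.6, 62.0, 50.6 and 55.0 CPM in Ag+Costim. Its log2 fold change of 0.27 ± 0.15 was near the median of all genes. Eif4enif1, the nuclear import and repression partner of eIF4E, had a log2 fold change of 0.38 ± 0.19, and Eif4ebp3 was at 0.142 CPM or less in every library. Per length, the mean level of Eif4e was 77.4 ± 7.18 TPM (length-scaled counts) in Ag+Costim, against 13.7 ± 2.40 for Eif4ebp1 and 14.4 ± 1.72 for Eif4ebp2.

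All 5 genes of eIF2 and the other initiator tRNA factors and all 5 genes of the eIF2B exchange factor had log2 fold changes above 0, from 0.39 to 0.70 and from 0.22 to 0.59, and none of the 10 separated the groups. Eif2s1, the alpha subunit that the stress kinases phosphorylate, measured 113, 399, 226, 121 and 434 CPM in Ag and 402, 395, 378, 504 and 418 CPM in Ag+Costim. As in Eif4a1, Ag libraries 1 and 4 were low and Ag libraries 2 and 5 were level with Ag+Costim (log2 fold change 0.70 ± 0.37, edgeR BH = 0.297). The X-linked gamma subunit gene Eif2s3x, whose reads could be shared with a pseudogene (Gm2223, 100% identity over 1350 bases), measured 54.5, 114, 81.6, 42.4 and 95.5 CPM in Ag and 118, 114, 76.4, 97.9 and 142 CPM in Ag+Costim. Within Ag+Costim the 2 lowest values were in libraries 3 and 4, the libraries with high Y-linked RNA, and within Ag the lowest was in library 4; the part of sex in this was not tested. The catalytic eIF2B subunit Eif2b5 had a log2 fold change of 0.53 ± 0.29 and the alpha subunit Eif2b1 one of 0.57 ± 0.37.

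The 4 eIF2 alpha kinases were at low to moderate levels, and 2 of them separated the groups. Eif2ak2, the double-stranded RNA sensor PKR, measured 19.1, 21.6, 17.4, 20.4 and 18.7 CPM in Ag and 28.1, 33.1, 34.5, 26.9 and 29.0 CPM in Ag+Costim. Here the 5 Ag libraries lay close together, and the log2 fold change was 0.64 ± 0.12 (edgeR BH = 0.134, DESeq2 adjusted p = 0.000105). Eif2ak1, the heme-regulated kinase HRI, measured 91.9, 167, 121, 104 and 171 CPM in Ag and 178, 175, 178, 192 and 193 CPM in Ag+Costim. Its highest Ag library was just below the lowest Ag+Costim library (0.48 ± 0.19, edgeR BH = 0.257). Eif2ak3, the endoplasmic reticulum kinase PERK, measured 7.08, 11.5, 15.2, 8.29 and 13.0 CPM in Ag and 12.6, 22.01, 18.02, 13.5 and 12.5 CPM in Ag+Costim. Eif2ak4, the amino acid sensor GCN2, measured 11.1, 12.2, 19.9, 11.4 and 2.69 CPM in Ag and 13.0, 13.8, 17.7, 17.9 and 18.8 CPM in Ag+Costim. In these last 2 genes the groups overlapped, with edgeR BH values of 0.279 and 0.429, and Ag library 5 held the single low value of Eif2ak4.

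The 14 eIF3 genes encode the subunits of the largest initiation factor and its associated eIF3j. Their median log2 fold change was 0.40, and their range, from -0.25 to 1.33, was the widest of the 7 roles. The upper end was Eif3j2 alone (SE 1.43), without which the highest was Eif3b at 0.86. Eif3a, the large scaffold subunit, measured 164, 271, 225, 188 and 264 CPM in Ag and 325, 322, 330.3, 366 and 352 CPM in Ag+Costim, without overlap (0.61 ± 0.17, edgeR BH = 0.194, DESeq2 adjusted p = 0.00408). Eif3b had a larger log2 fold change, 0.86 ± 0.33, but Ag library 5 at 577 CPM exceeded the lowest Ag+Costim library at 573. Eif3j2 measured 8.58, 18.2, 17.6, 0 and 0 CPM in Ag and 21.6, 20.5, 19.9, 25.6 and 23.4 CPM in Ag+Costim. It matches Eif3j1 over all 2379 bases of its transcript at 99.4% identity, so its separation is uncertain, and Eif3j1 had overlapping groups (0.60 ± 0.22). At the other end, Eif3f measured 151 ± 40.2 CPM in Ag against 127 ± 18.1 for Ag+Costim (SD, n = 5; log2 fold change -0.25 ± 0.20), with overlapping groups, and Eif3k and Eif3h had log2 fold changes of -0.11 ± 0.22 and 0.02 ± 0.19. Per length in Ag+Costim, the subunit genes ranged from 77.7 TPM (Eif3f) to 420 TPM (Eif3i), with Eif3j1 and Eif3j2 lower at 33.3 and 14.2 TPM.

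Among the 10 genes for start site choice, subunit joining and release, Eif5a was the most abundant initiation factor gene per length, at 1521 ± 757 TPM (length-scaled) in Ag and 2381 ± 254 TPM in Ag+Costim. Eif5a, which despite its name mainly helps elongation and carries the modified residue hypusine, measured 477, 2083, 1141, 478 and 2569 CPM in Ag and 1963, 1986, 1910, 2521 and 2111 CPM in Ag+Costim. Ag libraries 1 and 4 were lowest, Ag library 5 was the highest of all 10, and the groups overlapped (0.64 ± 0.45, edgeR BH = 0.388). Eif6, the factor that keeps large subunits from joining too early, measured 108, 323, 169.8, 116 and 418 CPM in Ag and 280.4, 285, 276, 324 and 292 CPM in Ag+Costim, with the same order of Ag libraries. Eif5, the GTPase-activating protein of eIF2, measured 209, 275, 194, 221 and 280.5 CPM in Ag and 308, 283, 281, 331 and 302 CPM in Ag+Costim. The highest Ag library and the lowest Ag+Costim library were all but level, at 280.5 and 280.6 CPM (0.35 ± 0.15, edgeR BH = 0.266). The GTPase Eif5b had 0.59 ± 0.19 (DESeq2 adjusted p = 0.0424), while the start codon stringency genes Eif1 and Eif1b had 0.05 ± 0.18 and -0.03 ± 0.19.

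The spread within the groups differed. The median coefficient of variation of the 50 genes at 10 CPM or more was 37.8% in Ag and 8.02% in Ag+Costim, against 32.2% and 8.54% for all genes at that level. In 33 of the 50 (66%) Ag libraries 1 and 4 were the lowest 2 Ag libraries, as in 40.3% of all genes, and in 29 (58%; all genes 52.5%) Ag libraries 2 and 5 both reached the lowest Ag+Costim library. These libraries were singled out after their values were seen. Relative to the Ag+Costim mean of each gene, the median log2 ratio was -1.13 in Ag library 1, -0.92 in library 4 and -0.65 in library 3, and it was -0.02 and 0.07 in libraries 2 and 5. The summed level of the 10 cell cycle genes had the same order, with libraries 1 and 4 lowest, library 3 between and libraries 2 and 5 at the Ag+Costim level. B cell markers were higher in Ag libraries 1, 3 and 4 (111 to 288 CPM) than in libraries 2 and 5. Myeloid markers were lowest in Ag libraries 1 and 4, at 35.4 and 38.9 CPM. They summed to 53.6 and 58.2 CPM in Ag libraries 2 and 5, 94.8 in Ag library 3 and 65.2 to 139 in Ag+Costim. The part of cycling cells and of other cell types in the levels of the initiation factor genes was not tested.

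**Figure D3:**
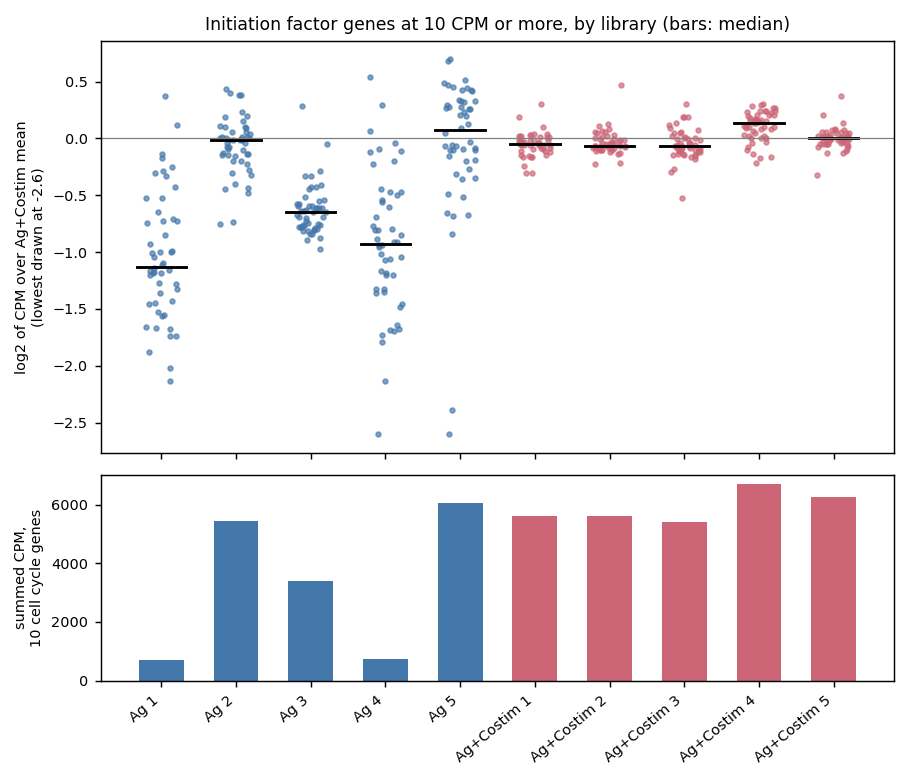
Upper panel, log2 of the CPM of each of 50 initiation factor genes over its Ag+Costim mean in each library (points; bars are medians, and the lowest points are drawn at a floor); lower panel, summed CPM of 10 cell cycle genes. Ag libraries 1 and 4 have the lowest medians (-1.13 and -0.92) and the lowest cell cycle sums (717 and 755 CPM).

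Genes that work with the initiation factors were examined as 7 lists of 58 genes, 57 of them tested. Of these 43 had log2 fold changes above 0 and 14 below, 12 were higher and 1 lower without overlap, and 0 passed edgeR (18 at an unadjusted p below 0.05, 16 of them higher). The shares without overlap over all genes were 4.48% higher and 1.13% lower, and 11.3% and 0.22% at 10 CPM or more. At an unadjusted p below 0.05 in edgeR, 7.89% of all genes were higher and 10.7% lower. At 10 CPM or more these shares were 20.2% and 2.82%. DESeq2 called 9 higher and 3 lower (8.27% and 2.49% of all genes at 10 CPM or more), and limma 33 higher and 7 lower (57.7% and 12.5%). Of the 12, 7 were among the 15 cap and tail partners, which had a median log2 fold change of 0.53. The 7 included the poly(A)-binding protein gene Pabpc1 (means of 366 CPM in Ag and 447 in Ag+Costim), the regulator of terminal oligopyrimidine mRNAs Larp1 (0.79) and the helicase gene Ddx3x (0.59). The others were Cyfip1 (0.81), Dhx29 (0.59), Cyfip2 (0.58) and Paip2b (0.54). Pdcd4, the inhibitor of eIF4A, had -0.55 with overlapping groups. Of the 11 TORC1 and cap kinase genes, Mtor, Mlst8 and the eIF4E kinase Mknk2 were higher without overlap, with log2 fold changes of 0.53, 0.48 and 0.53. The median of the 11 was 0.13, with 4 of them below 0, and DESeq2 called 3 higher and 1 lower. Of the 10 targets of the eIF2 phosphorylation response, Ddit3 (CHOP) was the 1 gene lower without overlap, at 14.5 CPM in Ag and 7.33 in Ag+Costim, while Atf4 had 0.23 and Asns 1.36, both with overlap. None of the 9 elongation and termination genes separated the groups, and their log2 fold changes ran from -0.60 (Eef2k, the kinase of elongation factor 2) to 0.74 (the release factor gene Etf1), with -0.07 for Eef1a1 and 0.10 for Eef2.

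The second comparison asked whether the transcripts made from each gene differed. Transcript usage was testable in 46 of the 53 genes, and 0 passed a BH of 0.05 (Simes, edgeR) with a change of share over 0.1, where 0.297% of 10441 genes did. At an unadjusted p below 0.05 there were 5 (6.42% of all genes), Eif3i, Eif5b, Eif2ak4, Eif2ak3 and Eif2s2, and limma called 0 of the initiation factor genes and 145 of all genes. In Eif2ak4 the main coding transcript took 77.4%, 93.0%, 14.4%, 76.6% and 73.4% of the counts in Ag and 95.4%, 90.5%, 95.3%, 97.2% and 98.1% in Ag+Costim. The mean share was 67.0% ± 30.3 and 95.3% ± 2.93, and Ag library 3 alone supplied the lowest value.

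The share of counts on transcripts annotated as non-coding (nonsense-mediated decay, retained intron or processed transcript) was taken for the 5 genes with most such counts. In Eif5 it was 9.06%, 8.85%, 8.15%, 9.496% and 4.996% in Ag and 5.41%, 6.68%, 5.42%, 6.16% and 4.76% in Ag+Costim. Ag library 5 alone overlapped the Ag+Costim range (two-sided exact permutation test, p = 0.0397, BH over the 5 genes 0.179). The unadjusted p was above 0.05 when any of 7 libraries was left out. In Eif4g1 the shares were 10.6%, 14.6%, 28.0%, 2.098% and 1.87% in Ag and 3.83%, 2.49%, 1.15%, 0.359% and 1.45% in Ag+Costim, most of it on the retained-intron transcript Eif4g1-210 (exact p = 0.0714, BH 0.179). For Eif3l, Eif4a2 and Eif4a1 the exact tests gave p = 0.159, 0.302 and 0.746. Eif4a2 kept a share of 27.7% ± 10.7 in Ag and 32.8% ± 1.40 in Ag+Costim on such transcripts.

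**Figure D4:**
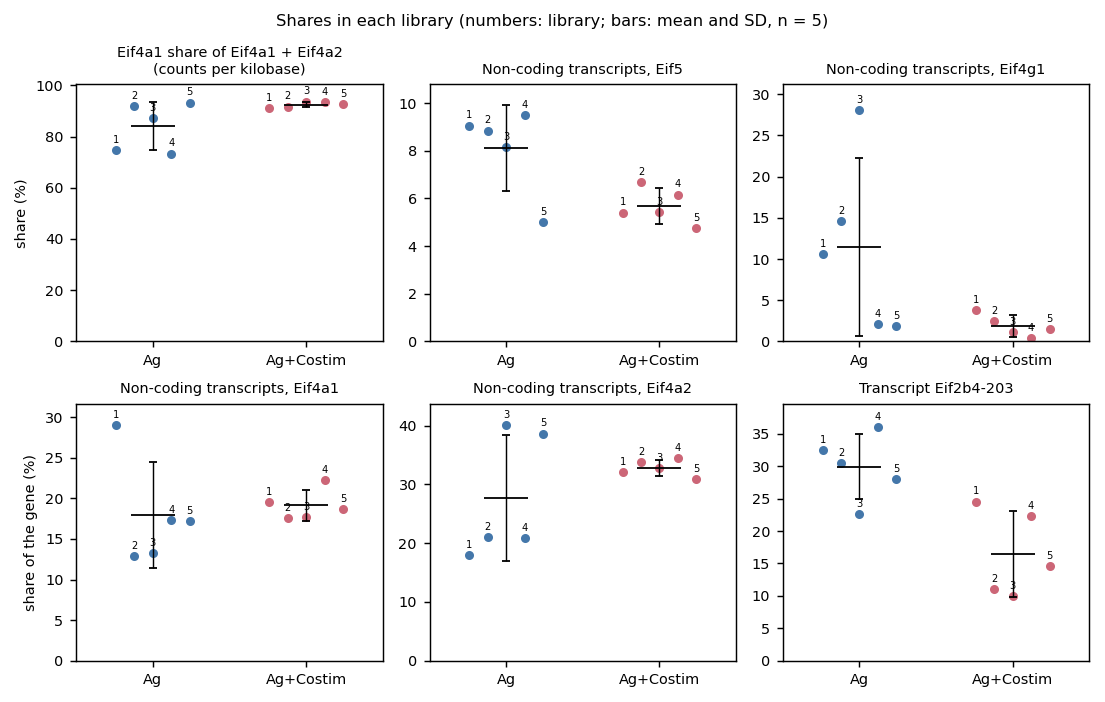
Shares in percent in each library (points, numbered by library) with mean and SD (n = 5 per group): Eif4a1 among both helicase genes, the counts on non-coding transcripts of 4 genes, and the transcript Eif2b4-203. Ag libraries 1 and 4 hold the low Eif4a1 shares, Ag library 3 the highest non-coding share of Eif4g1, and Ag libraries 3 and 5 the high non-coding shares of Eif4a2.

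Splice events were deposited as percent spliced in (PSI), the fraction of molecules that include a stretch, with 1 value per group and hence no spread. There were 676 events in 51 of the genes, and 508 of their 544 core exons had a PSI of 0.95 or more in both groups. A PSI difference over 0.05 was seen in 36 events, and past a probability of 0.9 as well were 2 of the 676, 1 higher and 1 lower in Ag+Costim, against 0.517% and 0.536% of the 138940 events in the table. The exon junctions of both events are shown from GENCODE vM21 (mm10), with the end of the exon before in lower case and the first bases of the alternative stretch or of the exon that replaces it in capitals:
Eif4a2, exon included: aactatattcacagGAGTCGATAGCGGC
Eif4a2, exon skipped: aactatattcacagAATTGGCAGAGGGG
Eif2b4, upstream acceptor: ggctgttcgcgaagTGCGTCCCCACGCG
Eif2b4, downstream acceptor: ggctgttcgcgaagAATCGAGATCCGAG

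The Eif4a2 event was a core exon of 107 bases (chr16:23112351-23112457, plus strand), whose length is not a multiple of 3. Its PSI was 0.620 in Ag and 0.7101 in Ag+Costim. In the transcript Eif4a2-204 the reading frame meets a stop codon within the first bases of this exon (attcacaggagtcgaTAGcggcagttg, stop in capitals), 97 bases before the last exon junction, so that 362 codons are read in place of the 407 of the coding transcript that skips it, and the annotation types it as a nonsense-mediated decay transcript. In the counts, Eif4a2-204 took 17.95% ± 10.2 of the gene in Ag and 22.9% ± 2.66 in Ag+Costim (two-sided exact permutation test, p = 0.310). Eif4a2-202, a coding transcript in which the same stretch opens a longer last exon and the same stop is used, took 61.8% ± 13.1 and 55.6% ± 4.56. Over all transcripts that span the position, those with the stretch made up 86.8% ± 3.78 in Ag and 85.1% ± 3.06 in Ag+Costim (exact p = 0.421), of opposite sign to the PSI. Most of that share was Eif4a2-202, in which the stretch is part of the last exon and not an internal exon. The mean of Eif4a2-204 differed in the direction of the PSI.

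The Eif2b4 event, in the gene of the delta subunit of eIF2B, was an alternative acceptor of 145 bases (chr5:31192626-31192770, minus strand), spliced in at 0.364 in Ag against 0.208 in Ag+Costim. The upstream acceptor makes an exon of 189 bases in place of 44 and occurs in the transcript Eif2b4-203, which reads 544 codons against 524 in the main transcript with the downstream acceptor. Eif2b4-203 took 32.5%, 30.4%, 22.6%, 36.1% and 28.1% of the gene's counts in Ag and 24.6%, 11.1%, 9.91%, 22.3% and 14.6% in Ag+Costim. The means were 29.9% ± 5.05 and 16.5% ± 6.62. Ag library 3 alone fell into the Ag+Costim range (two-sided exact permutation test, p = 0.0159, unadjusted). The direction was that of the PSI, but the PSI comes from the same libraries and the event was chosen by it. Eif2b4-203 was also the transcript of the gene with the largest change, so the p-value is not independent support. The usage test of the whole gene did not pass. The transcript Eif2b4-202, which also reads 544 codons, took 28.5% ± 8.66 and 35.3% ± 13.2, and over all transcripts with the stretch the share was 58.6% ± 9.88 and 51.9% ± 10.2 (exact p = 0.333).

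A microexon of Eif4g1, chosen after its values were seen, had a PSI difference below the limit, with PSI 0.00476 in Ag and 0.0432 in Ag+Costim. It lies at chr16:20674786-20674806 (plus strand) and adds 7 codons; it is shown in capitals between its neighbouring exons: ccagGGAGGATTCAGGTCTCTGCAGcact. The share of spanning transcripts with this exon was 8.63% ± 17.6 in Ag and 3.08% ± 5.80 in Ag+Costim, with Ag library 3 at 40.1% and the other libraries between 0.115% and 13.4% (exact p = 0.643), again of opposite sign to the PSI.

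**Figure D5:**
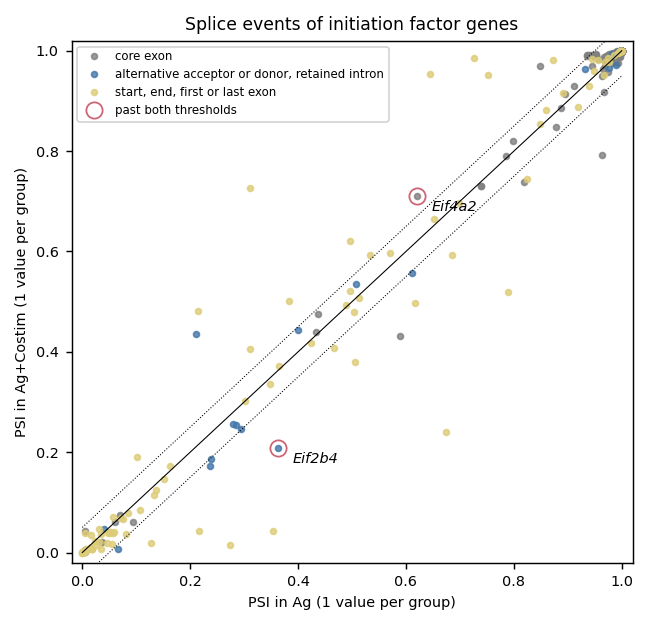
PSI in Ag against PSI in Ag+Costim for 676 splice events of 51 initiation factor genes, 1 value per group; the solid line is equality, the dotted lines a difference of 0.05, and circles mark the 2 events past both thresholds. Most events lie on or near the line, and 36 differ by more than 0.05.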

How the data were processed

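Paired reads of poly(A) RNA, from SMART-Seq v4 and Nextera XT libraries without strand, were mapped by the authors to mm10 with HISAT2 2.1.0 and SAMtools 1.9 and assembled with StringTie 2.1.0; the deposited gene and transcript tables hold estimated counts for 5 Ag and 5 Ag+Costim libraries. The authors tested them with DESeq2 1.30.1 in R 4.0.5. PSI was deposited as a fraction with 1 value per group from Whippet (version not given in the sources used here), and the authors' splicing score, a probability that the groups differ, served here only as a filter. All columns of samples were mapped.

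Counts were rounded to whole numbers. The 26345 entries without an annotated gene (96 of them spike-ins), 0.0458% to 0.308% of the counts of a library, were left out. Tests used edgeR 4.0.16 (filterByExpr, TMM, robust quasi-likelihood), with DESeq2 1.42.0 and limma 3.58.1 as alternatives in R 4.3.3, and for single shares an exact two-sided permutation test over the 252 assignments. The permutation tests on CPM used log2(CPM + 0.5). The scripts were tested on simulated data. Near-copies were sought with BLAST+ 2.17.0. Of the 53 genes, 15 match another gene at 95% identity or more over at least 200 bases. In exons 22 overlap another gene, so reads of both sets could be shared. Among the genes given library by library, near-copies exist for Eif2s1, Eif2s3x, Eif3j2, Eif4a1, Eif4a2, Eif4e and Eif5a. The genes and lists were chosen with earlier results of these data known. Genes given library by library were 15 chosen by role and those without overlap at a mean of 10 CPM or more. The study describes the libraries as separate mice; the labels give only replicate numbers. Alternatives were other scalings, no filter, a replicate block and leaving out each library. Sequences are from GENCODE vM21 transcripts and RefSeq promoters (GRCm38.p6); 12 genes had no promoter entry.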

Additional observations from a re-analysis of the deposited data

Results flagged for a closer look

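In a test for a single library far from the other 4 of its group, 2 of 50 groups of values stood out, where chance gives about 1 in 20. Eif4a1 measured 988.9 CPM in Ag+Costim library 4, and the other Ag+Costim libraries lay between 797 and 848.7 CPM. The share of Eif4a1 counts on non-coding transcripts was 28.97% in Ag library 1, and the other Ag libraries lay between 12.87% and 17.28%. Ag library 1 was also one of the libraries with low Eif4a1, at 257 CPM. Causes were not tested.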

How the results depend on the processing

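The number of initiation factor genes past a BH of 0.05 was 0 in edgeR under every scaling, filter, leave-one-out and block setting, but 7 with DESeq2 and 42 with limma. DESeq2 called 6 higher and 1 lower (Eif4e1b, at 0.958 CPM or less), and limma 41 higher and 1 lower. Of all genes at 10 CPM or more, DESeq2 called 8.27% higher and 2.49% lower, and limma 57.7% and 12.5%. The number without overlap and higher was 5 with DESeq2 size factors and 5 with the upper quartile, and 9 with total counts. It ranged from 7 to 12 when single libraries were left out, with 12 without Ag library 5. The share of all genes at 10 CPM or more moved as well. It ranged from 11.3% to 19.3% in these settings and was 19.3% without Ag library 5. The median log2 fold change of all genes at 10 CPM or more moved from 0.24 (TMM) to 0.12, 0.02 and -0.00 with DESeq2 size factors, the upper quartile and total counts, and 40 or 41 of 50 initiation factor genes lay above it in each. The log2 fold change of Eif4ebp1 reversed to -0.015 (DESeq2 size factors), -0.10 (total counts), -0.11 (upper quartile) and -0.0099 (DESeq2), and ranged from -0.0442 to 0.292 with single libraries left out, below 0 without Ag library 1, Ag library 4 (-0.0186) or Ag+Costim library 1 (-0.0023). Eif4ebp2 reversed to -0.0156 with total counts and Eif4a2 to 0.12 without a filter. Replicate numbers did not pair the libraries (correlations of deviations 0.212, 0.00988, -0.180, -0.414 and 0.0538; none correlated best with its own number). With the replicate block 0 genes were called by level and 1 of the initiation factor genes, Eif5, by transcript usage, as also without Ag library 4 (range 0 to 1). Of all genes, usage was called in 30 of 10441 with the block and 83 of 10752 without Ag library 4. The main fit called 31 of 10441. Left-out libraries moved the Eif4a1 share difference between 5.81 and 10.8 points. They moved the non-coding share difference between -3.21 and -2.08 points for Eif5, -12.0 and -5.45 for Eif4g1, -1.96 and -0.868 for Eif3l, 2.65 and 8.16 for Eif4a2, and -0.0533 and 3.97 for Eif4a1. The Eif4a1 value reversed to -0.0533 without Ag library 2 and was 3.97 without Ag library 1 (exact p = 0.00794). The causes were not tested. Of the other values, 292 of single genes and 100 of comparisons kept their direction and side of the threshold. Depth was lowest in Ag library 3, at 59.6 M counts.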
